A study of Mus musculus with 4 samples.

Results

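The genes described here are the 10 ligands and receptors of the vascular endothelial growth factor (VEGF) and angiopoietin systems, followed through the cell types of the mouse lung. They are 10 of the 57010 genes counted and were picked by symbol: Vegfa, Vegfc, Vegfd, Kdr, Flt1, Flt4, Tek, Tie1, Angpt1 and Angpt2. Each symbol stood on 1 gene identifier, and all 10 were detected, with totals in the cells kept between 1560 transcripts (UMIs) for Angpt2 and 99100 for Tek. The study set lungs of Cre_Pos mice, in which Shh-driven Cre meets a floxed Trp73 gene (Shh.Cre+/Flox-p73, exons 7 to 9 floxed), against Cre_Neg littermates that carry the homozygous floxed gene without Cre. All mice were C57Bl6/J and 8 weeks old, and each genotype was 1 pooled suspension of 6 mice. Cells were depleted of CD45-positive cells, enriched for EpCAM-positive cells and sorted as live, so the shares of cell types are set by those steps. Shh is made by the epithelium of the developing lung; recombination itself was not measured here.

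VEGF ligands bind receptor tyrosine kinases on endothelial cells: VEGF-A binds VEGFR1 (Flt1) and VEGFR2 (Kdr), VEGF-C binds VEGFR3 (Flt4) and, once processed, VEGFR2, and VEGF-D binds VEGFR3. The angiopoietins act through the receptor Tie2 (Tek), with Angpt1 from mural and mesenchymal cells as its agonist, Angpt2 as a ligand that often antagonises it, and Tie1 as a partner receptor that binds no angiopoietin with high affinity. In the lung, alveolar type 1 (AT1) cells supply VEGF-A to the capillary bed, which is built of 2 endothelial types: aerocytes, thin cells that line the gas exchange surface and carry carbonic anhydrase 4, and general capillary cells.

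Counts came from 16358 cells, of which 8661 were Cre_Pos and 7697 were Cre_Neg, with a median of 8218 UMIs per Cre_Pos cell and 8708 per Cre_Neg cell. The 4 sublibraries are technical splits that each mix both pools, so the spread between them measures handling and counting, not animals. With 1 pool per genotype no test of genotype was possible, and every interval below is a 95% interval that covers counting error only. Levels are given as CPM, the UMIs of a gene per 1000000 UMIs of its class and pool. Trp73 itself stood at 11.8 CPM in all Cre_Pos cells and 85.8 CPM in all Cre_Neg cells, but at 312 CPM in Cre_Pos and 334 CPM in Cre_Neg ciliated-like cells, of which there were 120 Cre_Pos and 1201 Cre_Neg; counts over the whole gene do not check the loss of exons 7 to 9. Cells with Xist and no Y-linked transcript numbered 7108 in Cre_Pos and 5356 in Cre_Neg, and cells with Y-linked transcripts alone 528 in Cre_Pos and 1148 in Cre_Neg, so the pools differed in their mix of the sexes.

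Endothelial cells were divided into zones by clusters made without the 10 genes and without the pathway genes described at the end. The markers that then named and placed these clusters include none of the 10 genes but some of the pathway genes. For the endothelium these are Dll4 for artery, Apln and Kcne3 for aerocytes, Ptprb for blood endothelium and Pdgfrb for pericytes. In total 7635 blood endothelial cells fell into 7 zones. One was aerocyte capillary-like, with 9 of its 10 markers raised at least 2-fold over all endothelium. The other 6 were ordered by the mean log2 excess of vein over artery markers, which was -1.72 in arterial-like cells, -1.43 in artery-leaning, -1.09 in artery-side, -0.59 in vein-side and 0.62 in vein-leaning capillary cells, and 2.77 in venous-like cells. The 4 capillary zones between the arterial-like and venous-like cells are ranges of a continuum and not types. Artery-side, vein-side and vein-leaning cells had no artery or vein marker raised at least 2-fold and were placed by that mean alone. A further 3 clusters were kept apart: 88 endothelial cells, 68 Cre_Pos and 20 Cre_Neg, also held pericyte genes, 248 endothelial cells, with a median of 16545.5 UMIs, held genes of both capillary types, and 449 capillary cells had a median of 2685 UMIs.

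The upstream sequences of Vegfa and Vegfc are shown because these ligands ran in opposite directions along the vessel axis, as described next. Both are the 250 bases before a RefSeq start on GRCm38.p6, written 5′ to 3′ in the direction of the gene, and hold no exon of the GENCODE annotation. A stretch of bases just after the start was found in a GENCODE transcript of the gene for Vegfa but not for Vegfc. Capitals mark the letters GGAA or its reverse TTCC, the core of ETS factor motifs, which many endothelial genes hold.
Vegfa (chr17:46032378-46032627, minus strand): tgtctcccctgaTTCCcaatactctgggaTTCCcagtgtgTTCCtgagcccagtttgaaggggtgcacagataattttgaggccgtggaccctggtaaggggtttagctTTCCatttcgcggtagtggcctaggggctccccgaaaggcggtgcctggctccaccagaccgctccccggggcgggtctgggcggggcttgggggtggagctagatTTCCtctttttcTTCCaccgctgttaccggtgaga
Vegfc (chr8:54077282-54077531, plus strand): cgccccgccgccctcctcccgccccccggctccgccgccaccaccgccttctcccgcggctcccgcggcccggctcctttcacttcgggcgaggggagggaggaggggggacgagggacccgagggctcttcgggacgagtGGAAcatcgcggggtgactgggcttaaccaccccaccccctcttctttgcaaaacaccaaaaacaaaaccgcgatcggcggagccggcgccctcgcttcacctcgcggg
The Vegfa window had 6 GGAA or TTCC matches and 59.2% G and C, and the Vegfc window had 1 match and 71.6% G and C. Such a match was present in 93.45% of 32851 RefSeq promoters of that length, with a median of 3 matches, so neither window stands apart by holding one. Neither printed window held the letters ACGTG or CACGT, or GCGTG or CACGC, cores of hypoxia response elements searched on both strands; 16.57% of promoters held ACGTG on either strand and 28.16% held GCGTG. The RefSeq table lists another Vegfa start, whose window held 1 ACGTG and 1 GCGTG match and is not printed because it overlaps annotated exons. The windows say nothing of elements elsewhere in these genes.

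**Figure D1:**
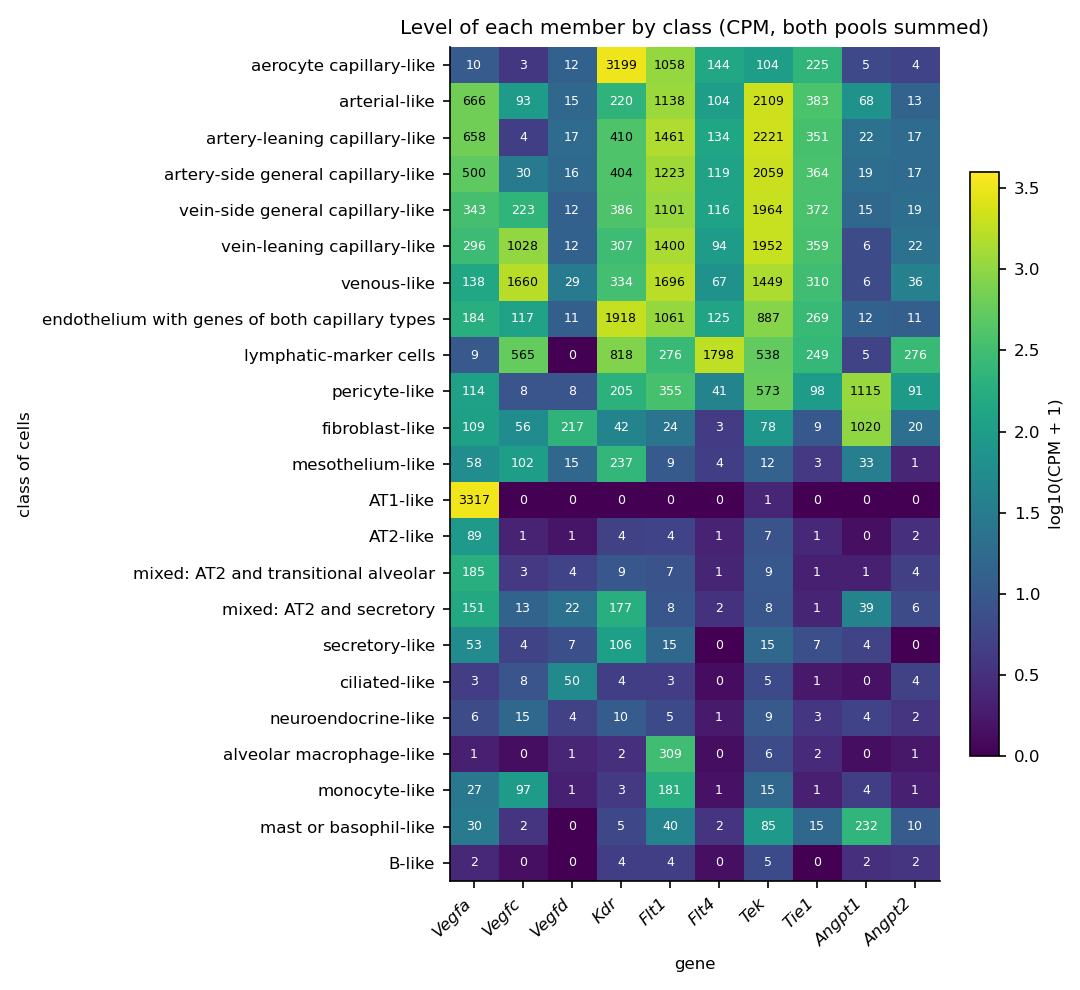
Level of the 10 genes (columns) in classes of cells (rows), both pools summed; numbers are CPM and colour is log10 of CPM + 1. Vegfa peaks in AT1-like cells at 3317 CPM, Kdr in aerocyte capillary-like cells at 3199 CPM and Angpt1 in pericyte-like and fibroblast-like cells at 1115 and 1020 CPM.

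Vegfa, the main ligand of VEGFR2, was highest in AT1-like cells. In Cre_Pos AT1-like cells it stood at 3206, 3269, 3081 and 3788 CPM in the 4 sublibraries, and in Cre_Neg AT1-like cells at 3132, 3072, 3727 and 3488 CPM. The pools overlapped, with 3293 CPM (interval 3125 to 3466) in Cre_Pos and 3358 CPM (3139 to 3587) in Cre_Neg, a log2 ratio of -0.03 (-0.15 to 0.09). This rests on 30 Cre_Pos and 22 Cre_Neg cells. Every one of them had a Vegfa UMI when each cell was thinned to 2000 UMIs (100% of both pools, lower bounds 88.4% in Cre_Pos and 84.6% in Cre_Neg). Of the other 9 genes, AT1-like cells held 1 UMI in all, of Tek.

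In AT2-like cells, the surfactant-secreting progenitors of AT1 cells, Vegfa was 94.8 CPM in Cre_Pos and 83.7 CPM in Cre_Neg. AT1-like cells thus held 37.4 times the AT2-like level (35.5 to 39.4), with 34.7 times in Cre_Pos and 40.1 times in Cre_Neg. Thinned to 2000 UMIs, 15.3% of AT2-like cells had a Vegfa UMI in each pool (60.9% of Cre_Pos and 52.8% of Cre_Neg cells unthinned), against 0 of 178 Cre_Pos and 0 of 207 Cre_Neg B-like cells, which allow shares of up to 1.69% and 1.45%. Between them stood the cluster with AT2 and transitional alveolar markers, at 189 CPM in Cre_Pos and 179 CPM in Cre_Neg, and the cluster with AT2 and secretory markers, at 166 CPM in Cre_Pos and 131 CPM in Cre_Neg. Vegfa in the last of these was higher in all 4 Cre_Pos sublibraries (164 to 168 CPM) than in all 4 Cre_Neg ones (122 to 144 CPM), a separation found for 9.09% of genes there, but in cells with Y-linked transcripts alone the log2 ratio was -0.86. Summed AT2 markers in that cluster were 11033 CPM in Cre_Pos and 5297 CPM in Cre_Neg, so the makeup of the cluster differed between the pools; the part of this in the Vegfa difference was not tested.

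Endothelial cells also carried Vegfa, with the least in aerocyte capillary-like cells. Along the axis the level was 666 CPM in arterial-like, 658 in artery-leaning, 500.5 in artery-side, 343 in vein-side, 296 in vein-leaning and 138 in venous-like cells, while aerocyte capillary-like cells had 9.96 CPM (8.32 to 11.8), above the 1.64 CPM (0.45 to 4.20) of B-like cells. The first pair of these do not differ beyond counting error, and the later steps do. In artery-leaning cells the level over all other zones was 1.17 on the log2 scale, between 1.07 and 1.39 in the 8 combinations of pool and sublibrary, and in venous-like cells it was -1.24, between -1.60 and -0.75. Aerocyte capillary-like cells stood 5.35 log2 units below the other zones, with all 8 values between -6.04 and -5.01. Of all Vegfa UMIs, 62.7% lay in the 7 endothelial zones, 13.2% in AT2-like and 8.06% in AT1-like cells, shares that follow the cells recovered.

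Vegfc, the ligand best known for lymphatic growth, ran the other way. It was 93.2 CPM in arterial-like, 3.66 in artery-leaning, 29.6 in artery-side, 223 in vein-side, 1028 in vein-leaning and 1659.7 CPM in venous-like cells, and 2.86 CPM in aerocyte capillary-like cells. Venous-like cells stood 3.21 log2 units above the other zones, between 2.25 and 3.83 in the 8 combinations, and vein-leaning cells 2.53, between 1.84 and 2.98. The arterial-like value rests on 80 UMIs and was uneven, with 1 Cre_Neg sublibrary at 384 CPM and another at 0. Thinned to 2000 UMIs, 71.9% of Cre_Pos and 72.3% of Cre_Neg venous-like cells had a Vegfc UMI (81.4% and 83.9% unthinned), and none of the thinned B-like cells did. Outside the blood endothelium, among classes of at least 50 cells, Vegfc was highest in mesothelium-like (102 CPM) and monocyte-like cells (96.7 CPM). The 9 Cre_Pos and 7 Cre_Neg cells with lymphatic markers, described below, stood higher. They held 0.77% of all Vegfc UMIs, beside 0.86% in the 88 mesothelium-like cells. Since vein markers set the order of the zones, these gradients describe which genes run with those markers.

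Vegfd, the third ligand, was a gene of fibroblast-like and ciliated-like cells, with 217 CPM in fibroblast-like cells over both pools. Fibroblast-like cells held 221, 262, 254 and 212 CPM in the Cre_Pos sublibraries and 199, 172, 215 and 201 CPM in the Cre_Neg ones, a log2 ratio of 0.25 (0.06 to 0.45) with 1 Cre_Neg value above the lowest Cre_Pos value. In ciliated-like cells it was 39.8 CPM in Cre_Pos and 51.4 CPM in Cre_Neg, a log2 ratio of -0.37 (-0.69 to -0.06). Vegfd lies on chromosome X, and of the ciliated-like cells with transcripts of 1 sex, 97.1% in Cre_Pos and 16.7% in Cre_Neg had the Y-linked ones. Within cells with Y-linked transcripts alone the ratio was -0.67 (-1.07 to -0.28), from 77 Cre_Pos and 203 Cre_Neg UMIs. In the endothelial zones Vegfd stayed between 11.8 and 29.2 CPM, highest in venous-like cells. A UMI was found in 39.9% of Cre_Pos and 27.8% of Cre_Neg fibroblast-like cells thinned to 2000 UMIs (76.7% and 66.7% unthinned), and in none of the B-like cells.

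**Figure D2:**
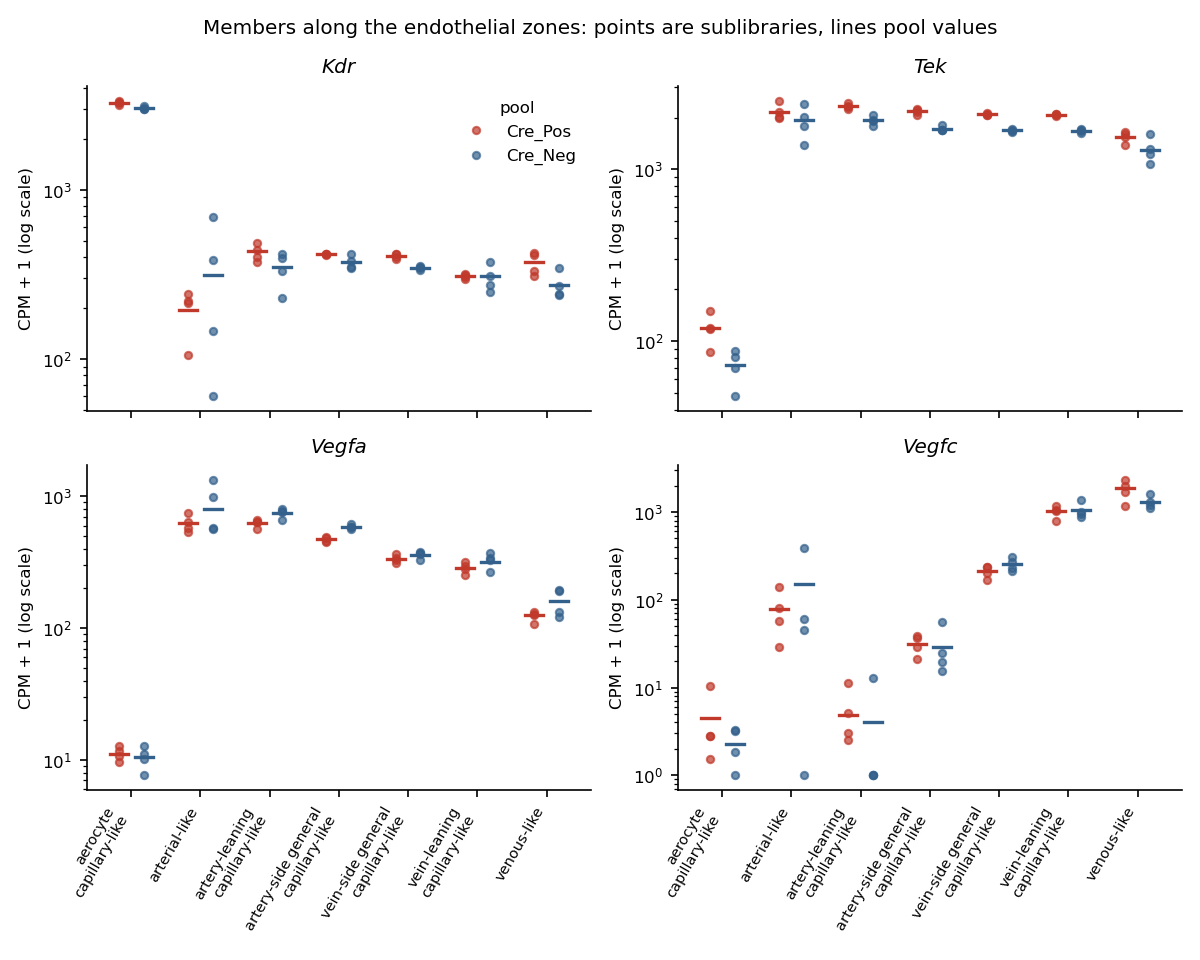
Levels of 4 of the genes in the 7 endothelial zones (CPM + 1, log axis); points are the 4 sublibraries of Cre_Pos (red) and Cre_Neg (blue), and lines the pool values. Kdr stands above 3000 CPM in aerocyte capillary-like cells of both pools, where Tek, Vegfa and Vegfc are lowest or close to it; Vegfa declines and Vegfc climbs from artery to vein.

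Among the receptors, Kdr marked aerocyte capillary-like cells. It stood at 3176, 3262, 3305 and 3354 CPM in the Cre_Pos sublibraries and 3122, 2993, 3004 and 3045 CPM in the Cre_Neg sublibraries, against 378 CPM in the other zones of both pools. The difference of aerocyte capillary-like cells from the other zones was 3.08 on the log2 scale, between 3.01 and 3.27 in all 8 combinations. Levels in the other zones were 410.2 CPM in artery-leaning, 404 in artery-side, 386 in vein-side, 307 in vein-leaning and 334 CPM in venous-like cells, with overlapping intervals between neighbours except between vein-side and vein-leaning cells, and 220.1 CPM, the lowest, in arterial-like cells. A Kdr UMI was found in 99.6% of Cre_Pos and 99.4% of Cre_Neg aerocyte capillary-like cells at 2000 UMIs (99.8% and 99.2% unthinned), against 1.12% of Cre_Pos and 1.45% of Cre_Neg B-like cells (median depths 5289 and 5614 UMIs).

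Kdr was also found outside the endothelium. It was 236 CPM in Cre_Pos and 238 CPM in Cre_Neg mesothelium-like cells and 177 CPM in both pools in the cluster with AT2 and secretory markers, a log2 ratio there of 0.003 (-0.14 to 0.15), but 1.74 in cells with Y-linked transcripts alone, of which Cre_Pos held 261 and Cre_Neg 24 Kdr UMIs. In that cluster 19.8% of Cre_Pos and 23.7% of Cre_Neg cells had a Kdr UMI at 2000 UMIs (41.3% and 52.2% unthinned), while the summed level of 10 blood endothelial markers was 96.3 CPM in Cre_Pos and 90.2 CPM in Cre_Neg and Flt1 was at 12.3 and 3.29 CPM. Secretory-like cells, with 28 Cre_Pos and 88 Cre_Neg cells, held 77.3 CPM in Cre_Pos and 119 CPM in Cre_Neg. AT2-like cells, by comparison, held 4.82 CPM in Cre_Pos and 3.21 CPM in Cre_Neg. Over both pools Kdr was 205 CPM in pericyte-like cells, 54.8 CPM in the cluster with NK and proliferating markers and 41.5 CPM in fibroblast-like cells. Of these Kdr UMIs, 53.4%, 63.0% and 90.4%, in that order, lay in 5 cells of the class. Most of those in pericyte-like and fibroblast-like cells came from cells with endothelial markers, as given below.

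Flt1, the receptor that binds VEGF-A with high affinity and weak kinase activity, was spread over all zones. Its levels ran from 1058 CPM in aerocyte capillary-like cells through 1138 in arterial-like, 1461 in artery-leaning, 1223 in artery-side, 1101 in vein-side and 1399.6 in vein-leaning to 1696 CPM in venous-like cells. Outside the endothelium Flt1 was highest in pericyte-like cells, at 355 CPM over both pools, in a class that also held endothelial markers. With at most 20 UMIs of those markers per cell it was 77.2 CPM in Cre_Pos and 37.1 CPM in Cre_Neg pericyte-like cells. It was also in alveolar macrophage-like cells, at 309 CPM in 201 Cre_Neg cells (only 3 Cre_Pos cells were of this class, with 14 UMIs), and in monocyte-like cells. There it was 235, 210, 282 and 150 CPM in the Cre_Pos sublibraries and 158, 122, 114 and 150 CPM in the Cre_Neg ones, a log2 ratio of 0.71 (0.39 to 1.04) with the lowest Cre_Pos value below the highest Cre_Neg one. Summed blood endothelial markers in those monocyte-like cells were 292 CPM in Cre_Pos and 210 CPM in Cre_Neg; their part in the Flt1 difference was not tested.

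Flt4, the receptor of VEGF-C and VEGF-D, was low in blood endothelium, from 144 CPM in aerocyte capillary-like cells to 67.0 CPM in venous-like cells. It was high in 16 cells that carried at least 4 of 10 lymphatic endothelial markers, 9 Cre_Pos cells with 257 UMIs (1819 CPM) and 7 Cre_Neg cells with 141 UMIs (1762 CPM). These cells also held Angpt2 at 177 CPM in Cre_Pos and 450 CPM in Cre_Neg (25 and 36 UMIs); with so few cells the pools are not compared. Tie1, present in all zones, varied least of the receptors along the axis: 383 CPM in arterial-like, 351 in artery-leaning, 364 in artery-side, 372 in vein-side, 359 in vein-leaning and 310.1 CPM in venous-like cells, and 225 CPM in aerocyte capillary-like cells.

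Tek, the receptor of the angiopoietins, was lowest where Kdr was highest. Aerocyte capillary-like cells held 149, 118, 85.4 and 117 CPM in the Cre_Pos sublibraries and 46.9, 79.6, 86.3 and 68.6 CPM in the Cre_Neg ones, against 1983 CPM in the other zones of both pools. That is a log2 difference of -4.25 from the other zones, between -5.18 and -3.85 in all 8 combinations. The other zones held 2109 CPM in arterial-like, 2221 in artery-leaning, 2059 in artery-side, 1964 in vein-side, 1952 in vein-leaning and 1449 CPM in venous-like cells. At 2000 UMIs 16.6% of Cre_Pos and 10.7% of Cre_Neg aerocyte capillary-like cells had a Tek UMI (43.0% and 29.5% unthinned), against 1.69% of Cre_Pos and 0.97% of Cre_Neg B-like cells, so the low level was above that of a class that should lack the receptor.

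The endothelial cells with genes of both capillary types fell between the zones for both receptors, with 1892 CPM of Kdr and 943 CPM of Tek in Cre_Pos and 1999 CPM of Kdr and 708 CPM of Tek in Cre_Neg. Their median of 16545.5 UMIs was above that of every zone, and whether they are doublets was not tested beyond the doublet caller.

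Angpt1, the Tie2 agonist, came from mesenchymal cells. Pericyte-like cells held 1115 CPM and fibroblast-like cells 1020 CPM over both pools, and 60.5% of all Angpt1 UMIs were in fibroblast-like and 16.7% in pericyte-like cells. Mast or basophil-like cells came next, at 283 CPM in Cre_Pos and 168 CPM in Cre_Neg (63 and 30 UMIs in 40 and 42 cells), with 57.1% of the Cre_Pos and 66.7% of the Cre_Neg UMIs in 5 cells. In the endothelium Angpt1 was highest in arterial-like cells, at 67.5 CPM, and at most 21.7 CPM in the other zones. Angpt2 was highest in the 16 cells with lymphatic markers, at 276 CPM over both pools (211 to 354, from 61 UMIs). It was 90.7 CPM in pericyte-like cells, 45.3 CPM in the endothelial cells with pericyte genes, and from 4.32 CPM in aerocyte capillary-like to 36.3 CPM in venous-like cells.

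Between the pools, the genes were compared within each of 27 classes with at least 20 cells of each genotype, over gene and class pairs with at least 50 UMIs in both pools together. That minimum sums both pools, so a gene with few UMIs can reach it through the pool where it is high. Every endothelial zone held more UMIs in Cre_Pos than in Cre_Neg. The counts below and the shares of all genes rest on this minimum. A pair counts as past the fold when Cre_Pos and Cre_Neg differ at least 1.5-fold. Of 142 such pairs of the 10 genes, 40 were past the fold as higher and 12 as lower in Cre_Pos, while 13.9% of all pairs of any gene were past it in either direction. Some of these pairs sit in classes where the gene is nearly absent or where few cells hold its UMIs, as set out below. Others lie in classes whose pool ratios are not described. The cluster with NK and proliferating markers had 6 of 6 higher and 0 lower (19.0% and 10.3% of all genes). Capillary cells of low depth had 5 of 7 higher and 0 lower (23.2% and 12.4%), and T-like cells 0 of 2 higher and 2 lower (10.1% and 10.3%). Each other such class held 1 pair past the fold, where 10.8% to 26.3% of all genes were past it in either direction. In aerocyte capillary-like cells Tek and Angpt2, 2 of 9 measured genes, were higher and 0 lower, where 3.45% of all genes were higher and 2.32% lower. In artery-leaning cells 1 of 9, Angpt2, was higher and 0 lower (6.12% and 4.46% of all genes). In artery-side cells 1 of 10, Angpt2, was higher and 0 lower (3.49% and 3.23%), and in vein-side cells 1 of 10, Angpt1, was higher and 0 lower (2.57% and 2.94%). In vein-leaning cells Vegfd and Angpt2, 2 of 9, were higher and 0 lower (3.92% and 4.84%), and in venous-like cells 1 of 9, Angpt2, was higher and 0 lower (5.55% and 7.57%). In arterial-like cells, 79 in Cre_Pos and 30 in Cre_Neg, 0 of 8 were higher and 2, Kdr and Vegfc, were lower (12.3% and 9.99%).

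**Figure D3:**
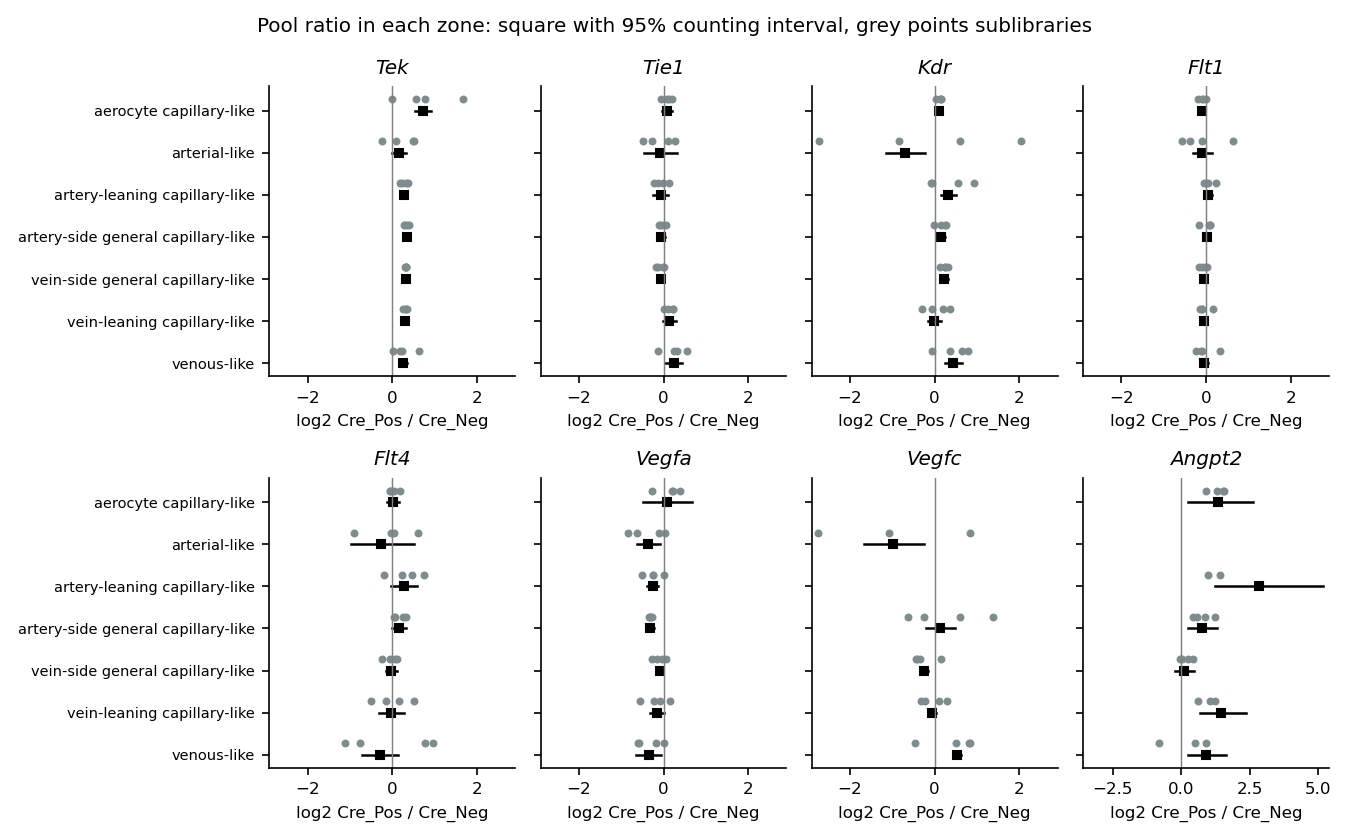
Log2 ratio of Cre_Pos over Cre_Neg for 8 of the genes in the 7 zones; squares are pool ratios with 95% counting intervals and grey points are sublibraries, except those where either pool had 0 UMIs. Tek lies to the right of 0 in every zone, close to 0.3 in the 4 capillary zones between artery and vein.

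Tek was the receptor that differed in the same direction in all 7 zones, by less than the fold in 6 of them. Vein-side cells held 2126, 2073, 2105 and 2056 CPM in the Cre_Pos sublibraries and 1688, 1668, 1721 and 1645 CPM in the Cre_Neg ones. Artery-side cells held 2246, 2205, 2074 and 2156 CPM in Cre_Pos and 1696, 1812, 1690 and 1684 CPM in Cre_Neg. In both, each Cre_Pos sublibrary stood above each Cre_Neg one. The log2 ratio was 0.31 (0.28 to 0.35) in vein-side, 0.34 (0.29 to 0.38) in artery-side, 0.30 (0.24 to 0.37) in vein-leaning and 0.28 (0.20 to 0.35) in artery-leaning cells. It was 0.25 (0.16 to 0.35) in venous-like and 0.15 (-0.01 to 0.33) in arterial-like cells, where sublibraries overlapped; complete separation was found for 0 of 9 genes in venous-like cells (2.16% of all genes higher and 2.03% lower) and for 0 of 8 in arterial-like cells (2.27% and 1.74%).

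Sizes like these were not rare among all genes: 8.82% of genes had a ratio at or above that of Tek in vein-side, 10.4% in artery-side, 13.8% in vein-leaning and 20.1% in artery-leaning cells. Complete separation of the sublibraries in the direction of Tek was found for 4.11% of genes in vein-side, 4.22% in artery-side, 2.63% in vein-leaning and 3.26% in artery-leaning cells, and for Tek in all 4 zones, which share the same 2 pools of mice and are not independent. In Xist-positive cells without Y-linked transcripts the Tek ratio was 0.36 in vein-side and 0.38 in artery-side cells. In cells with Y-linked transcripts alone it was 0.19 in each. In vein-leaning cells the 2 values were 0.31 and 0.10, and in artery-leaning cells 0.29 and 0.30. Cells with Y-linked transcripts alone were few: 48 Cre_Pos and 146 Cre_Neg vein-side, 31 and 69 artery-side, 10 and 35 vein-leaning and 11 and 18 artery-leaning. The free RNA of 549202 barcodes with few UMIs held Tek at 767 CPM in the Cre_Pos and 565 CPM in the Cre_Neg pool, and it made up about 1.14% of Cre_Pos and 1.23% of Cre_Neg endothelial UMIs, judged by surfactant transcripts.

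In aerocyte capillary-like cells the Tek ratio was 0.73 (0.53 to 0.92), past the fold, with 1.85% of genes at or above it. It was uneven, at 1.67, 0.57, -0.02 and 0.77 in the 4 sublibraries, and in cells with Y-linked transcripts alone it was -0.34 (-1.11 to 0.40, from 26 Cre_Pos and 42 Cre_Neg UMIs). The phosphatase Ptprb, which acts on Tie2, was also past the fold there, at 166 CPM in Cre_Pos and 107 CPM in Cre_Neg. In these cells Ptprb, like Tek, stood far below its level in the other zones, where artery-side cells held 5452 CPM in Cre_Pos and 5144 CPM in Cre_Neg.

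Flt1, Flt4 and Tie1 were not past the fold in any of the 7 zones, and Kdr was past it in arterial-like cells. Kdr in aerocyte capillary-like cells was 0.11 (0.08 to 0.14) higher on the log2 scale in Cre_Pos, with each Cre_Pos sublibrary above each Cre_Neg one, and 33.7% of genes had a ratio at or above it; 3.85% of genes were separated as higher and 3.09% as lower in that zone. In vein-side cells Kdr was 415, 401, 416 and 386 CPM in the Cre_Pos sublibraries and 332, 341, 349 and 355 CPM in the Cre_Neg ones, a ratio of 0.23 (0.15 to 0.31) with no overlap, where 4.11% of genes were separated as higher and 4.15% as lower. In venous-like cells the ratio was 0.44 (0.24 to 0.64) with overlap, and in arterial-like cells -0.69 (-1.15 to -0.22), where the Cre_Neg sublibraries ran from 59.1 to 684 CPM on 58 UMIs and the ratio was 0.17 without sublibrary 3. Flt1 ratios lay between -0.10 and 0.05, Flt4 between -0.29 and 0.27, and Tie1 between -0.08 and 0.24 in the 7 zones.

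Of the ligands made by endothelium, Vegfa was lower in Cre_Pos artery-side cells, at 486, 490.1, 449.5 and 457 CPM in Cre_Pos and 582, 613, 564 and 582 CPM in Cre_Neg. The ranges did not overlap, and the log2 ratio was -0.31 (-0.38 to -0.24), with 12.2% of genes at or below it and 3.49% separated in that direction. Artery-leaning (-0.25), arterial-like (-0.36), vein-side (-0.09), vein-leaning (-0.16) and venous-like cells (-0.35) had ratios of the same sign with overlapping sublibraries. No gene of the 10 was separated as lower in artery-leaning (2.21% of all genes) or vein-leaning cells (3.1%). In AT2-like cells the Vegfa ratio had the other sign, 0.18 (0.09 to 0.27), but was -0.26 (-0.54 to 0.01) in cells with Y-linked transcripts alone. Vegfc was 0.52 (0.43 to 0.61) higher in Cre_Pos venous-like cells, but at -0.47 in sublibrary 1 and at -0.49 in cells with Y-linked transcripts alone, and it was -0.26 (-0.35 to -0.16) in vein-side cells. In arterial-like cells it was -0.97 (-1.66 to -0.26), on 52 UMIs in Cre_Pos and 28 in Cre_Neg, and 1.31 without sublibrary 1. Vegfd in vein-leaning cells had 51 UMIs in Cre_Pos and 10 in Cre_Neg, a ratio of 1.14 (0.15 to 2.29). It reached the UMI minimum mainly through Cre_Pos.

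Angpt2, which endothelium releases to act on Tie2, had the largest ratios in the zones, on few UMIs. It had 58 UMIs in Cre_Pos and 3 in Cre_Neg artery-leaning cells (log2 ratio 2.85, 1.24 to 5.17), 96 and 15 in vein-leaning cells (1.47, 0.68 to 2.36), 48 and 8 in aerocyte capillary-like cells (1.35, 0.26 to 2.64), 78 and 25 in venous-like cells (0.92, 0.25 to 1.63) and 197 and 39 in artery-side cells (0.76, 0.26 to 1.30). In these 5 zones Angpt2 was past the fold and higher in Cre_Pos. Its UMIs in artery-leaning and aerocyte capillary-like cells reached the minimum mainly through Cre_Pos. In artery-side cells with Y-linked transcripts alone it was -0.49, on 2 Cre_Pos and 7 Cre_Neg UMIs. The level stayed low, at most 44.1 CPM in Cre_Pos and 23.3 CPM in Cre_Neg, and in vein-side cells, the zone with the most Angpt2 UMIs, the ratio was 0.12 (-0.23 to 0.47). Angpt2 stood at 11.6 CPM in the Cre_Pos and 8.46 CPM in the Cre_Neg free RNA. Angpt1 in vein-side cells had 214 UMIs in Cre_Pos and 56 in Cre_Neg, a ratio of 0.77 (0.34 to 1.22) that was -0.33 in sublibrary 1, while in artery-side cells it was -0.58 (-0.96 to -0.20) on 175 and 88 UMIs.

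**Figure D4:**
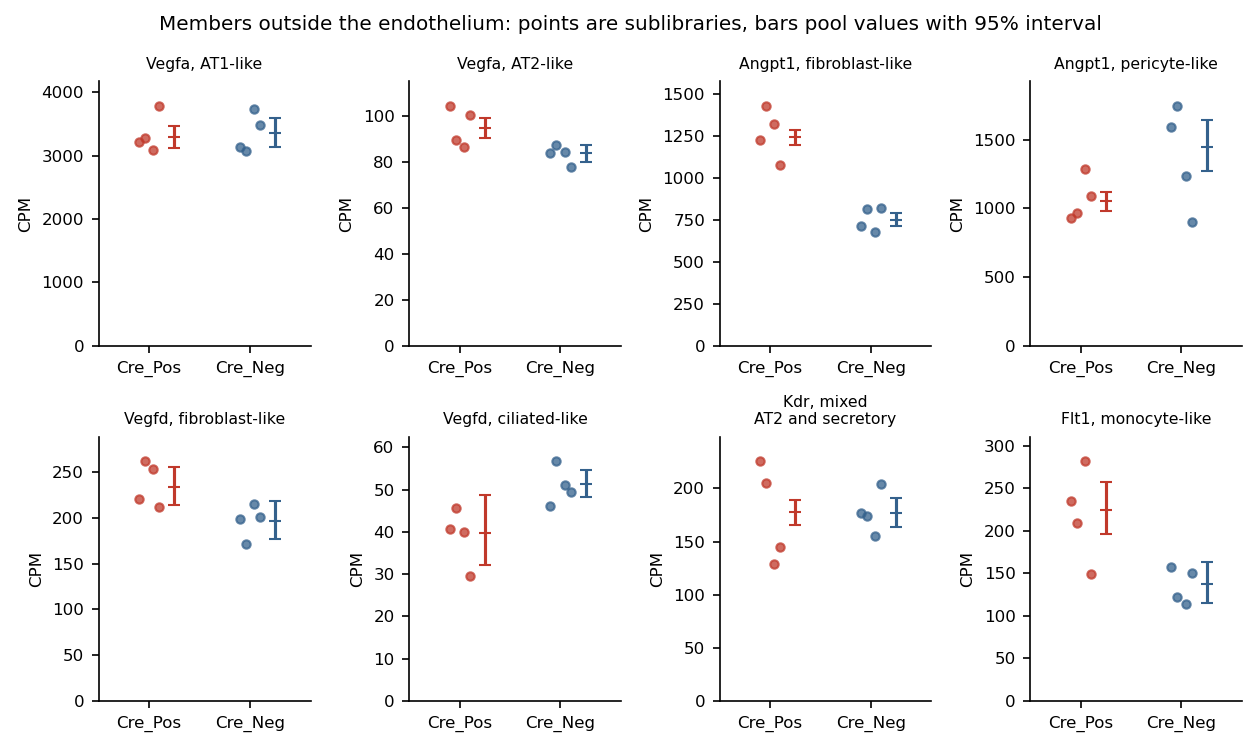
Levels of 5 of the genes in classes outside the endothelium (CPM, axes from 0); points are the 4 sublibraries of Cre_Pos (left, red) and Cre_Neg (right, blue), and bars the pool value with its 95% counting interval. Angpt1 in fibroblast-like cells is between 1074 and 1429 CPM in Cre_Pos and between 677 and 817 CPM in Cre_Neg, while Vegfa in AT1-like cells overlaps.

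Angpt1 differed in its main source. Fibroblast-like cells held 1223, 1429, 1321 and 1074 CPM in the Cre_Pos sublibraries and 715, 812, 677 and 817 CPM in the Cre_Neg ones, with no overlap, a separation found for 3.97% of all genes as higher and 2.77% as lower. The log2 ratio was 0.72 (0.63 to 0.82), past the fold, with 4.80% of genes at or above it. It was 0.73 in Xist-positive cells and 0.92 in cells with Y-linked transcripts alone, of which there were 9 Cre_Pos and 15 Cre_Neg. In this class of 163 Cre_Pos and 138 Cre_Neg cells 3 of 8 measured genes were higher and 0 lower, while 7.43% of all genes were higher and 7.12% lower. Of thinned cells, 74.1% in Cre_Pos and 61.7% in Cre_Neg had an Angpt1 UMI (92.6% and 91.3% unthinned). Pdgfra, a growth factor receptor of fibroblasts, was 1641 CPM in Cre_Pos and 1120.4 CPM in Cre_Neg, and the fibroblast markers summed to 13868 CPM in Cre_Pos and 12488 CPM in Cre_Neg. Which fibroblast kinds each pool held was not resolved.

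The other genes past the fold in fibroblast-like cells, Kdr and Flt1, came from few cells. Kdr had 155 UMIs in Cre_Pos and 12 in Cre_Neg, and 96.8% of the Cre_Pos UMIs were in 5 cells. Summed blood endothelial markers there were 813 CPM in Cre_Pos and 249 CPM in Cre_Neg. In cells with at most 20 UMIs of those markers, a limit set after the values were seen, Kdr had 8 UMIs in Cre_Pos and 7 in Cre_Neg, while Angpt1 stayed at 1283 CPM in Cre_Pos and 774 CPM in Cre_Neg.

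Pericyte-like cells numbered 82 in Cre_Pos and 20 in Cre_Neg, in a cluster with a share of 0.9 of both pericyte and blood endothelial markers raised. There 4 of 7 measured genes were higher in Cre_Pos, Kdr, Flt1, Tek and Vegfa, and none lower, in a class where 20.2% of all genes were higher and 11.3% lower. Kdr had 203 and Tek 522 UMIs in Cre_Pos, and 5 and 59 in Cre_Neg. Blood endothelial markers summed to 5552 CPM in Cre_Pos (4235 to 6402 over sublibraries) and 3345 CPM in Cre_Neg (122 to 10652), with all 10 markers detected in each pool. With at most 20 of their UMIs per cell, 56 Cre_Pos and 17 Cre_Neg cells remained, with 14 and 0 UMIs of Kdr, 32 and 4 of Flt1 and 11 and 0 of Tek, and with Angpt1 at 1275 CPM in Cre_Pos and 1356 CPM in Cre_Neg. Over all pericyte-like cells Angpt1 was 928, 968, 1285 and 1088 CPM in the Cre_Pos and 1589, 1748, 1235 and 903 CPM in the Cre_Neg sublibraries, a log2 ratio of -0.46 (-0.67 to -0.25) with overlap.

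In the epithelium, 3 of 8 measured genes were higher and 1 lower in Cre_Pos AT2-like cells, where 2.0% of all genes were higher and 2.16% lower. These were Vegfc, Kdr and Tie1 as higher and Flt4 as lower, each at or under 4.82 CPM in both pools, while Vegfa was not past it. Tie1 was -0.35 without sublibrary 2 and Flt4 0.13 without sublibrary 3. Blood endothelial markers summed to 101 CPM in Cre_Pos and 62.3 CPM in Cre_Neg AT2-like cells, and their part was not tested. In ciliated-like cells 5 of 7 were higher and 0 lower (5.81% and 7.17% of all genes), all but Vegfd and Vegfc, with levels of at most 9.95 CPM in Cre_Pos and 5.07 CPM in Cre_Neg; Kdr was -0.23 without sublibrary 3. With the sex mix given above, this sets mostly male Cre_Pos against mostly female Cre_Neg cells. In cells with Y-linked transcripts alone, on 7 to 20 UMIs per pool for Angpt2, Kdr, Flt1 and Tek and 9 and 4 for Vegfa, the ratios were 2.24 for Angpt2, 1.90 for Vegfa, 0.92 for Kdr, 0.61 for Flt1 and -0.035 for Tek. Over all ciliated-like cells the endothelial markers summed to 78.8 CPM in Cre_Pos (21.8 to 178 over sublibraries) and 41.8 CPM in Cre_Neg (30.6 to 55.6). In Cre_Pos 69.8% of these marker UMIs lay in 5 cells, and in Cre_Neg 9.58%. In AT1-like cells 1 gene, Vegfa, could be measured and was not past the fold, which 8.9% of all genes were as higher and 6.66% as lower.

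The cluster with AT2 and secretory markers had 2 of 8 higher, Flt1 and Angpt2, and 3 lower, Vegfc, Vegfd and Angpt1, with 10.2% of all genes higher and 7.32% lower. Angpt1 there was 6.39, 16.9, 21.3 and 14.2 CPM in the Cre_Pos sublibraries and 53.8, 46.7, 125 and 57.2 CPM in the Cre_Neg ones, without overlap, as for 5.82% of all genes. The log2 ratio was -2.27 (-2.66 to -1.89), but in cells with Y-linked transcripts alone it was 0.80. A UMI was found in 2.78% of Cre_Pos and 8.71% of Cre_Neg cells at 2000 UMIs, against 0.56% of Cre_Pos B-like cells and 0 of 207 Cre_Neg ones. In monocyte-like cells 2 of 3 measured genes were higher and 0 lower (7.02% and 5.57% of all genes), Flt1 as given above and Vegfa. Vegfa had 44 UMIs in Cre_Pos and 7 in Cre_Neg, with 81.8% of the Cre_Pos UMIs in 5 cells. It reached the UMI minimum mainly through Cre_Pos.

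A list of 43 further genes of these pathways was read in the same way: other ligands, co-receptors, processing enzymes, signalling and response genes, hypoxia sensors and targets, and mural recruitment genes. In aerocyte capillary-like cells 4 of 26 measured were higher and 0 lower (3.45% and 2.32% of all genes), with a median log2 ratio of 0.08 beside 0.02 for all genes. The highest were the integrin Itga5 (1.67, from 60 Cre_Pos and 8 Cre_Neg UMIs), the response gene Egr3 (1.23) and the glycolytic enzyme Pgk1 (0.67), and the lowest were the peptide ligand Apln (-0.51; 174 CPM in Cre_Pos and 248 CPM in Cre_Neg), itself a marker that named the zone, the hypoxia target Ndrg1 (-0.50) and the kinase Prkca (-0.23). Itga5 in aerocyte capillary-like cells reached the UMI minimum mainly through Cre_Pos. In artery-side cells 0 of 28 were higher and 3 lower (3.49% and 3.23% of all genes), with a median of -0.01 beside 0.00 for all genes. Ndrg1 (0.50), Dll4 (0.33), itself an artery marker used to order the zones, and Foxo1 (0.31) were highest. Ccbe1 (-1.29), Adamts9 (-0.65) and Esm1 (-0.59) were lowest. Adamts9, a secreted metalloprotease, was 282 CPM in Cre_Pos and 441 CPM in Cre_Neg.

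In vein-side cells 2 of 28 were higher and 0 lower (2.57% and 2.94% of all genes), with a median of 0.02 beside -0.01 for all genes. The hypoxia targets Slc2a1 (0.70) and Bnip3 (0.59), each under 10 CPM in both pools, and the co-receptor Nrp2 (0.50) were highest, and Ccbe1 (-0.40), Adamts9 (-0.29) and Rasgrp3 (-0.20) lowest. In vein-leaning cells 2 of 23 were higher, Nrp2 (0.67) and Bnip3 (0.60), and 0 lower (3.92% and 4.84% of all genes), with a median of 0.04 beside -0.02; Arnt (0.24) followed, and Ldha (-0.42), Egln1 (-0.38) and Shb (-0.37) were lowest. In artery-leaning cells 3 of 21 were higher and 3 lower (6.12% and 4.46% of all genes), with a median of 0.002 beside 0.003. These were Prkca (2.67, 51 Cre_Pos and 3 Cre_Neg UMIs), Esm1 (0.88; 144 CPM in Cre_Pos and 78.5 CPM in Cre_Neg) and the oxygen sensor Egln1 (0.62), and on the lower side Adamts9 (-0.83), Shb (-0.68) and Ndrg1 (-0.67). Prkca reached the UMI minimum almost wholly through Cre_Pos, so its place among the higher genes rests on that selection. Esm1 had opposite signs in artery-leaning and artery-side cells, and the difference was not tested.

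In venous-like cells 3 of 22 were higher, Itga5 (0.63), Pdgfb (0.63) and Dll4 (0.61), and 0 lower (5.55% and 7.57% of all genes), with a median of 0.15 beside 0.00; Prkca (-0.57), Adamts9 (-0.42) and Ndrg1 (-0.31) were lowest. In arterial-like cells 2 of 18 were higher, Nr4a1 (1.13) and Shb (0.89), and 2 lower, Rcan1 (-1.28) and Esm1 (-0.94), near the 12.3% and 9.99% of all genes. Nrp1 was at 0.38 and Hif1a at -0.35, and the median was 0.05 beside -0.004. In AT2-like cells 2 of 29 were higher, Ptprb (1.02) and Rasgrp3 (0.59), and 2 lower, Hif3a (-1.43) and Ankrd37 (-0.83). Of all genes there 2.0% were higher and 2.16% lower, and the median was 0.02 beside 0.01 for all genes. Pgk1 was at 0.38 and Nrp2 at -0.32. Ptprb is 1 of the 10 blood endothelial markers, which summed to 101 CPM in Cre_Pos and 62.3 CPM in Cre_Neg AT2-like cells. Their part in its ratio was not tested.

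In fibroblast-like cells 3 of 27 were higher and 3 lower (7.43% and 7.12% of all genes), with a median of 0.21 beside 0.001. Ptprb (2.15) is itself 1 of the 10 blood endothelial markers summed above and Epas1 (1.73) is known to be abundant in endothelium, while Nrp1 was 829 CPM in Cre_Pos and 539 CPM in Cre_Neg (0.62); Itga5 (-0.98), Foxo1 (-0.64) and Ldha (-0.62) were lowest. In pericyte-like cells 5 of 18 were higher and 1 lower, where 20.2% and 11.3% of all genes were, with a median of 0.20 beside 0.07: Pdgfb (1.89), Hif1a (1.34) and Adamts3 (0.94) were highest and Adamts9 (-0.73), Foxo1 (-0.32) and Nrp2 (-0.20) lowest. In AT1-like cells 1 of 8 measured was higher, Pdgfb (0.60, -0.06 to 1.30), and 0 lower (8.9% and 6.66% of all genes), with Nrp1 (0.35) and Src (0.33) next and Prkca (-0.55), Itgb1 (-0.09) and Nrp2 (-0.04) lowest.

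In ciliated-like cells 2 of 26 were higher, Ptprb (1.16) and Esm1 (0.67), and 2 lower, the nitric oxide synthase Nos3 (-1.59) and Nr4a1 (-1.13) (5.81% and 7.17% of all genes), with Vegfb at 0.36, Ankrd37 at -0.44 and a median of 0.02 beside 0.03 for all genes. In monocyte-like cells 4 of 14 were higher and 0 lower (7.02% and 5.57% of all genes), with a median of 0.20 beside 0.02. Ptprb (1.6), Epas1 (1.43) and Slc2a1 (0.89) were highest and Shb (-0.41), Itga5 (-0.40) and Arnt (-0.18) lowest. Ptprb, highest in both classes, is 1 of the 10 blood endothelial markers. These summed to 78.8 CPM in Cre_Pos and 41.8 CPM in Cre_Neg ciliated-like cells. In monocyte-like cells they summed to 292 CPM in Cre_Pos and 210 CPM in Cre_Neg. Their part in the Ptprb ratios was not tested. The cluster with AT2 and secretory markers had 7 of 27 higher and 4 lower (10.2% and 7.32% of all genes), with a median of 0.19 beside 0.04. Ndrg1 (3.61), Adamts9 (2.11) and Bnip3 (1.11) were highest there, and the potassium channel subunit Kcne3 (-2.36), Hif3a (-2.33) and Epas1 (-0.94) lowest.

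The genes with the most similar pattern were sought by Pearson correlation of log2(CPM + 10) over 29 classes and 17026 genes, as a description, since classes share depth and free RNA. Kdr ran closest to Kitl (r = 0.96), Sema3f and Tbx3. Flt1 ran with Ace (0.95), Calcrl and Acvrl1, Flt4 with Myct1 (0.99), Cldn5 and Robo4, Tek with Acer2 (0.99), Ptprb and Adgrl4, and Tie1 with Ctla2a (0.99), Arhgef15 and Pcdh17. Of the ligands, Vegfa ran with Arhgef26 (0.87), Agrn and Efna1, Vegfc with Tcf23 (0.86), Ackr3 and 1700020G17Rik, and Vegfd with Fam227b (0.86), Col28a1 and Pir. Angpt1 ran with Dact1 (0.85), Abca8b and Ism1, and Angpt2 with 1700094M23Rik (0.85), Pde5a and Prex2.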

How the data were processed

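Lung cells were barcoded with split-pool combinatorial barcoding (Parse Evercode WT v2, per the labels' protocols) in 4 sublibraries that each mix 1 Cre_Pos and 1 Cre_Neg pool. The authors deposited a matrix of raw counts, whole transcripts per barcode and gene (191160309 UMIs in 647296 barcodes), with a cell table that names each barcode's pool and sublibrary, per the file headers. GRCm39 stands as the build in the submitters' processing notes and mm10 in the gene table deposited with the matrix. The aligner was not given in the sources used here, nor was the counting tool.

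Of 16579 barcodes that reached 500 genes, 16541 stayed under a mitochondrial share of 15%, and 183 doublets (1.11%) called by Scrublet in scanpy were removed. Doublets that the caller missed were not estimated. Of the cells kept, 540 share all 3 wells with a cell of another sublibrary. Cells were clustered with scanpy 1.11.5 (3000 variable genes without the 10 genes and the pathway list, 30 principal components, 15 neighbours, Leiden resolution 1, igraph 0.11.9, scikit-learn 1.9.0) into 31 clusters, named from 31 marker sets; names end in "-like" because they rest on markers alone, and 4 classes stayed mixed. A cluster was endothelial with at least 8 of 10 blood endothelial markers and fewer than 8 of 10 pericyte markers raised. The pericyte-like cluster had a share of 0.9 of each marker set raised and was named by its pericyte markers. Zones follow raised aerocyte, artery and vein markers or, where none of artery and vein was raised, the mean log2 excess of vein over artery markers.

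UMIs were summed per class, pool and sublibrary. Intervals at the 95% level are exact Poisson for CPM, exact conditional binomial for ratios and exact binomial for shares, computed with Python 3.11.15, numpy 2.4.6, scipy 1.17.1 and pandas 2.3.3; figures used matplotlib 3.10.9. The intervals cover counting error only. The computation of ratios and intervals was run on simulated Poisson counts with known folds. Those counts hold no spread between cells, sublibraries or mice, so the run says nothing of such spread. Alternatives used TMM (edgeR 4.0.16) and DESeq2 1.42.0 size factors in R 4.3.3, other clusterings, cells of 1 sex by transcripts, free RNA subtraction and leaving out each sublibrary.

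The 10 genes were read in every class, but their pool ratios are described only in the classes set out above. Pathway genes are named where they are among the 3 highest or 3 lowest ratios of a class with at least 50 UMIs (the same rule in each class described); Ptprb in the zones and Pdgfra were named after their values were seen. For each of the 10 genes the 3 genes with the highest correlation are named. The genes and lists were chosen with earlier results of these data known. Not used here are coordinates from the deposited files; promoters come from RefSeq on GRCm38.p6, and those of Angpt1 and Angpt2 were not used here.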

Additional observations from a re-analysis of the deposited data

Results flagged for a closer look

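In 4 of 111 groups of 4 sublibraries 1 value lay far from the other 3 by Dixon's criterion, which chance gives in about 1 of 20 groups. Flt1 in artery-side capillary cells was 1343 CPM in Cre_Neg sublibrary 3, while the other Cre_Neg sublibraries held 1147 to 1175 CPM. Tek in the same zone was 1812 CPM in Cre_Neg sublibrary 2, beside 1684 to 1696 CPM; the Cre_Pos values were all higher than this. Angpt2 there was 25.7 CPM in Cre_Pos sublibrary 1, beside 16.3 to 17.6 CPM. Tie1 in vein-leaning capillary cells was 363 CPM in Cre_Neg sublibrary 2, beside 318 to 325 CPM.

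Vegfa had log2 ratios of opposite sign in 2 classes, 0.18 in AT2-like cells and -0.31 in artery-side capillary cells, with all 4 sublibraries of each class on its own side of 0. The 4 sublibraries split the same 2 pools, and the share of all genes with such agreement was not counted. In AT2-like cells with Y-linked transcripts alone the Vegfa ratio changed sign, as given above. The difference between the classes was not tested, since each genotype is 1 pool.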

How the results depend on the processing

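No paired analysis was possible because each genotype is 1 pool, and the 4 sublibraries are technical splits of both pools with no test behind any ratio. The count of pairs past the fold, 52 of 142, was 31 to 43 without each sublibrary in turn (31 without sublibrary 2), 31 of 101 at Leiden resolution 0.5, 32 of 102 in Xist-positive cells, 4 of 24 in Y-linked cells, 143 of 257 without a UMI minimum and 29 at a fold of 2. Without each sublibrary, log2 zone differences ran from 3.06 to 3.10 for Kdr and -4.33 to -4.18 for Tek in aerocyte capillary-like cells, and from 3.10 to 3.32 for Vegfc in venous-like cells. At resolution 0.5, which gives no artery-leaning or vein-leaning zone, Kdr in aerocyte capillary-like cells was 2.64 and Vegfa in venous-like cells -0.63. With doublets kept, Vegfc was -3.40 in artery-leaning cells and reversed to -2.28 in vein-leaning cells; 123 of those 124 cells were AT2-like in the clustering reported, and that clustering has no arterial zone. Tek in aerocyte capillary-like cells was -4.68 in Y-linked cells, and its share of cells with a UMI was 10.5% in Cre_Pos and 4.59% in Cre_Neg at 1000 UMIs and 43.0% and 29.5% unthinned. By Spearman correlation, 8 of the 30 most similar genes were the same.

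Among the 114 ratios followed, those past the fold that changed sign were these, and the cause was not tested. The other classes were not checked for a change of sign. They include the cluster with NK and proliferating markers, capillary cells of low depth and T-like cells. Without each sublibrary in turn, Vegfc in arterial-like cells ran from -1.81 to 1.31, Tie1 in AT2-like from -0.35 to 1.5, Flt4 in AT2-like from -1.61 to 0.13, Kdr in arterial-like from -1.08 to 0.17 and Kdr in ciliated-like cells from -0.23 to 1.45. Doublets kept: Tek in ciliated-like -0.74, and in vein-leaning cells Angpt2 -0.046 and Vegfd -1.78. Y-linked cells: Tek in aerocyte capillary-like -0.34 and ciliated-like -0.035, Angpt2 in artery-side -0.49, and with AT2 and secretory markers Angpt1 0.80 and Vegfc 0.39; ratios not past the fold changed sign there too, among them Vegfa in AT2-like (-0.26) and AT2 and secretory (-0.86) and Vegfc in venous-like cells (-0.49). Resolution 0.5: Vegfa in pericyte-like cells -0.26. Few endothelial UMIs (chosen after seeing the data): Kdr in fibroblast-like cells -0.079. The Tek ratios of vein-side and vein-leaning cells were 0.34 and 0.35 under TMM and 0.35 and 0.37 under DESeq2 size factors; at least 1000 genes per cell moved none of 114 ratios. Depth limits Angpt2 and Vegfd in the zones, and genes with few UMIs in small classes.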
